A study of Tripsacum dactyloides with 133 samples.

Results

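The genes described here are the 150 gamagrass genes whose counts rested most on 1 plant, out of 45865 genes in the count table. They were chosen from their own values. In the 124 live libraries with a total of at least 5 M counts (M, 1000000), counts were scaled to the library total (CPM, counts per M, not divided by gene length). Of the 29981 genes with a mean CPM of 0.5 or more (called eligible genes below), the 150 with the highest share of summed CPM in a single plant were kept, which is 0.5003% of them. The plant with the highest CPM of a gene is called its holder. The share in the holder ran from 28.6% to 96.8% with a median of 38.6%, against a median of 2.04% over all eligible genes. These shares, the holders and the ratio of the holder to the next plant follow from the choice and are given as description, without a test.

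The plants were eastern gamagrass, *Tripsacum dactyloides*, a prairie grass related to maize, and RNA was taken from their crown roots, which grow from the base of the shoot. All were of the cultivar Pete, and each plant gave 1 library. Live microbial inocula came from 4 Kansas prairie soils, CWR, WEL, SVR and TRI, each conditioned beforehand with gamagrass or with no host, and either drought-stressed or well-watered. In the test phase the plants were droughted or well-watered. The 124 libraries held 16 drought and 16 well-watered plants for CWR and for TRI, 16 and 15 for SVR, and 15 and 14 for WEL. The study counts SVR and TRI as low-precipitation and CWR and WEL as high-precipitation legacy. A further 8 plants had a mock inoculum, 4 in drought and 4 well-watered.

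Total counts of the 124 libraries ran from 8.05 to 69.4 M, with a median of 52.8 M in drought (n = 63) and 27.2 M in well-watered plants (n = 61). SVR well-watered replicate 7, with 1.14 M, fell under the minimum and took no part in the choice. Bulk RNA of a root sums over all of its cells, so that more cells of a type and more RNA per cell cannot be told apart in any value below. The deposited tables name no gene, so roles are given only where the study names a maize orthologue, and the tissue label was not checked against marker genes. An orthologue is the gene of another species that descends from the same ancestral gene, and an orthogroup is the set of genes, within and across species, that descend from 1 ancestral gene. Genes of 1 orthogroup often lie side by side, and copies that are nearly identical can share reads.

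Most of these genes were close to silent in the typical plant and abundant in 1. The median over members of the median CPM across plants was 0.124, and 29 members had a median of 0. A member was at 0 in a median of 28 of the 124 libraries, and 2 members had a count in every library. In the holder the CPM ran from 20.9 to 978 with a median of 71.5. These values rested on 220 to 53504 counts (median 3039). Each holder is 1 plant and has no replicate. The next plant was lower by a factor of 1.13 to 142, with a median of 5.00. This factor was 5 or more in 75 members and under 2 in 21. A share above 50% was found in 44 members and one above 80% in 12.

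The gene most confined to 1 plant was Td00002ba015395 (chromosome 4, 150333634 to 150336149), whose maize orthologue is Zm00001eb394890. It reached 157 CPM in TRI drought replicate 8, which was 96.8% of its summed CPM and 8597 counts. The other drought plants lay between 0 and 1.10 CPM and the well-watered plants between 0 and 0.550 CPM, and the median was 0 in both. Td00002ba007663 (chromosome 2) came next, with 93.05% of its CPM in TRI drought replicate 6. That plant had 556 CPM, the next plant 24.96 CPM, and both treatments had a median of 0. Td00002ba003544 (chromosome 1) had a share of 91.1%, with 230 CPM in the same plant and 14.5 CPM in the next. Td00002ba005445 (chromosome 2) followed with 90.2%, from 84.04 CPM in TRI drought replicate 8 against 2.67 CPM in the next plant. The highest share in a well-watered plant was that of Td00002ba038262 (chromosome 14), with 87.8%. It had 268 CPM in SVR well-watered replicate 13 and 15.2 CPM in SVR well-watered replicate 9, and at most 2.62 CPM in drought. In all 5 genes the holder stood apart from every other plant by more than those plants differed among themselves.

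**Figure D1:**
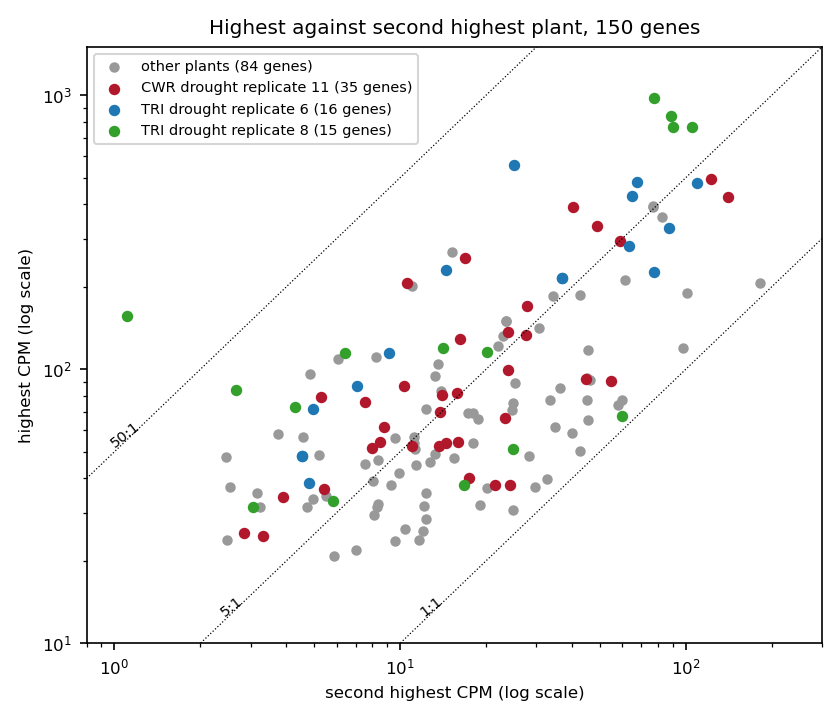
Highest CPM (vertical axis, log scale) against second highest CPM (horizontal axis, log scale) of the 150 genes over 124 live plants, 1 point a gene, coloured by the plant that held it. Dotted lines mark ratios of the highest to the second plant, which had a median of 5.00 and reached 142 for Td00002ba015395.

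At the other end the choice had no gap. The last members were Td00002ba038098 with 28.8% and Td00002ba009346 with 28.6%, and the first genes left out were Td00002ba036921 with 28.5% and Td00002ba041279 with 28.4%. Td00002ba032116 (chromosome 10), named after its values were seen, had 205.9 CPM in SVR well-watered replicate 4, 182.6 CPM in TRI drought replicate 11 and 168.0 CPM in CWR drought replicate 10, so that its holder stood little above the next plants.

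The 150 genes lay in 48 plants, while 76 plants held none. CWR drought replicate 11 held 35 of them (23.3%), TRI drought replicate 6 held 16 and TRI drought replicate 8 held 15. Together these 3 plants held 66 of the 150 members. WEL well-watered replicate 10 held 7, CWR well-watered replicate 4 and TRI well-watered replicate 9 held 6 each, TRI drought replicate 9 held 5 and CWR drought replicate 14 held 4. Of the others 27 plants held 1 member. Holding many members went only partly with being high in many genes. CWR drought replicate 11 had the highest CPM for 3.95% of all eligible genes, rank 3 of the 124 plants, TRI drought replicate 8 for 2.62% and TRI drought replicate 6 for 1.30%.

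**Figure D2:**
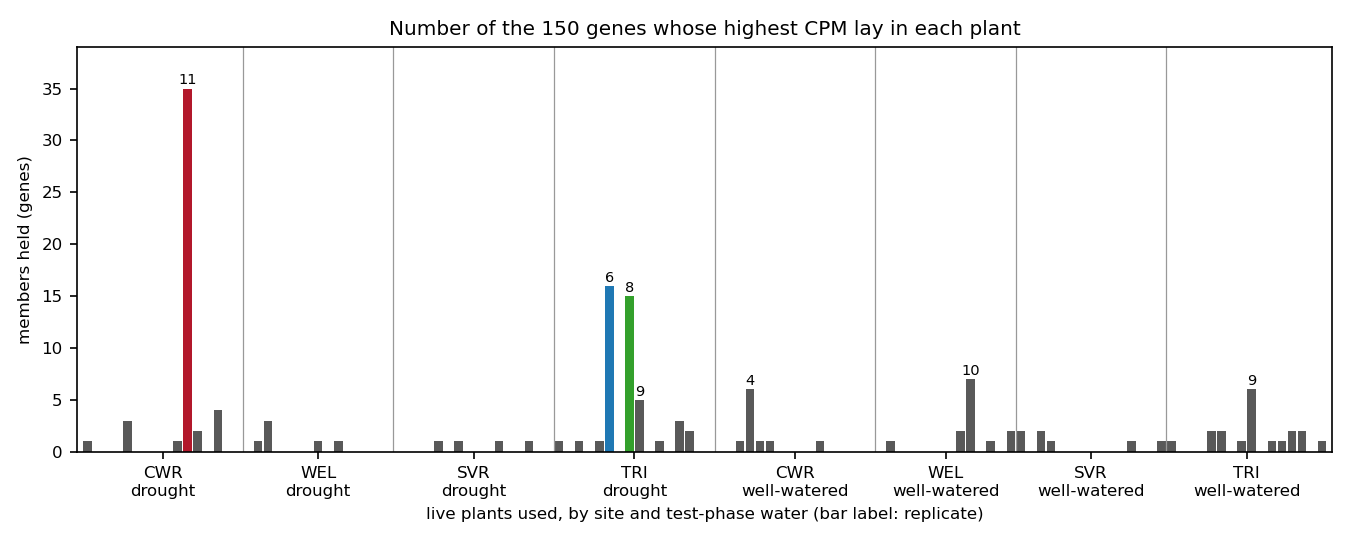
Number of the 150 genes held (vertical axis) by each of the 124 live plants (horizontal axis, by site and test-phase water), with the replicate number above the 7 tallest bars. The droughted CWR replicate 11 with 35 genes and droughted TRI replicates 6 and 8 with 16 and 15 stand above all others, the next of which held 7.

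By water treatment, 101 members (67.3%) were held by droughted plants, which made up 50.8% of the libraries and had the highest CPM for 49.2% of eligible genes. The 3 plants above were all droughted. Among the 84 members held elsewhere, 35 were in droughted and 49 in well-watered plants. When the genes were ranked again without those 3 plants, 44.7% of the 150 genes then chosen were held by droughted plants. Plants with at least 1 member numbered 23 in drought and 25 in well-watered conditions. By site, TRI plants held 64 members, CWR plants 56, WEL plants 19 and SVR plants 11, while SVR plants had the highest CPM for 31.4% of eligible genes, the largest percentage of the 4 sites. Without the single plant that held most in each site these numbers were 48, 21, 12 and 9. By legacy the members were divided evenly, 75 in each. Inocula conditioned with gamagrass went with 93 members and those without a host with 57, and drought-stressed conditioning with 86 against 64. Without CWR drought replicate 11, which had an inoculum conditioned with gamagrass under drought stress, these were 58 against 57 and 51 against 64. The counts also differed by depth. The 31 deepest libraries (55.9 to 69.4 M counts) held 71 members. The following groups of 31 held 30, 21 and 28 in order of falling depth, although each group had 12 plants with a member. CWR drought replicate 11 and TRI drought replicate 6, with 35 and 16 members, were among the 31 deepest, and TRI drought replicate 8, with 15, in the next group. The larger number in the deepest group thus rested largely on single plants. The part of depth in the counts by treatment was not tested.

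CWR drought replicate 11 held the broadest set. Its 35 genes had a median share of 33.8% and a median of 79.1 CPM there (24.7 to 494), a median of 5.73 times the next plant. Leading genes were Td00002ba034268 (chromosome 11), with 494 CPM, Td00002ba009634 (chromosome 3), with 426 CPM, and Td00002ba039753 (chromosome 15), with 393 CPM. Td00002ba034268 had a median of 2.94 CPM in drought and 3.21 CPM in well-watered plants and 123 CPM in SVR well-watered replicate 1, so it was detected in most plants. Td00002ba009634 had medians of 0.220 and 0.0917 CPM and 141 CPM in WEL drought replicate 14. Td00002ba039753 had medians of 0.822 and 0.456 CPM, and its next plant, CWR drought replicate 14, had 40.3 CPM. The 3 genes were thus low in most plants, and each had another plant far above the median. A maize orthologue was listed for 31 of the 35 genes, and they lay on 15 chromosomes. Other plants were also raised for many of them. TRI well-watered replicate 5 was among the 10 highest plants for 25 of the 35 genes, with a median of 6.18 CPM, and WEL drought replicate 14 and CWR well-watered replicate 5 for 18 each. CWR drought replicate 14 was second for 6 of them. Over the eligible genes that are no members, the log2(CPM + 1) profile of CWR drought replicate 11 had a median correlation of 0.824 with the other 123 libraries, rank 3 from the lowest, whereas TRI drought replicate 6 had 0.865 and TRI drought replicate 8 had 0.885. Whether this general difference has a part in the 35 genes was not tested.

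TRI drought replicate 6 held a more exclusive set, in which the genes also shared their next plants. Its 16 genes had a median share of 71.03% and a median of 222 CPM there (38.5 to 556). Among them were all 4 gamagrass genes of the orthogroup of maize nas7, a gene for nicotianamine synthase, which makes the metal chelator nicotianamine that plants use to move iron and other metals. The nas7 orthologue Td00002ba015525 (chromosome 4, 155320315 to 155321582) had 327.4 CPM in TRI drought replicate 6. It had 87.1 CPM in CWR drought replicate 10, 33.8 CPM in WEL well-watered replicate 3 and at most 4.74 CPM in every other plant, with a median of 0.0191 CPM in drought and 0 in well-watered plants. Td00002ba015526 overlaps it on the other strand and had 282, 63.2 and at most 20.6 CPM in the holder, in CWR drought replicate 10 and in well-watered plants. Td00002ba015515 and Td00002ba015516 (chromosome 4, 155071964 to 155073302) also overlap on opposite strands. Both had 215.7 CPM in the holder and 36.9 CPM in the next plant, and their values were identical in every deposited library. The counting set no strand, so the genes of such a pair cannot be told apart, and the 4 orthologues stand for 2 places. TRI drought replicate 6, CWR drought replicate 10 and WEL well-watered replicate 3 led, in this order, at both.

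The order of plants was shared across the set. CWR drought replicate 10 was second in 12 of the 16 genes, which lie at 9 places in the genome when overlapping genes are counted once, and WEL well-watered replicate 3 came next in 11 of these 12. In the 12 genes CWR drought replicate 10 had 4.79 to 87.1 CPM (median 30.9) and the plant of rank 3 had 1.90 to 60.5 CPM (median 14.5). The holder exceeded the second plant by a median of 7.57 times and the second exceeded the plant of rank 3 by a median of 2.21 times. The 3 plants had inocula of 3 sites. TRI drought replicate 6 had soil conditioned with gamagrass under drought stress, CWR drought replicate 10 soil without a host and well-watered, and WEL well-watered replicate 3 soil with gamagrass and well-watered. CWR drought replicate 10 held only 1 member itself and had the highest CPM for 0.287% of eligible genes, and WEL well-watered replicate 3 held none. The 4 genes that CWR drought replicate 10 did not follow were Td00002ba039767 (chromosome 15), Td00002ba045289 (chromosome 18) and the overlapping pair Td00002ba044555 and Td00002ba044556 (chromosome 18), named after their values were seen. Td00002ba039767 had 478.6 CPM in the holder and 109.9 CPM in CWR drought replicate 5, with medians of 1.92 CPM in drought and 1.31 CPM in well-watered plants.

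TRI drought replicate 8 held 15 genes with a median share of 56.3% and a median of 115 CPM there (31.4 to 978). Of these, 4 made up an array on chromosome 11. Td00002ba033209 (32623432 to 32626378) had 978 CPM in that plant, Td00002ba033210 (32670163 to 32673907) 843 CPM and Td00002ba033213 (32810627 to 32813616) 768 CPM. Td00002ba033214 (32887183 to 32890191) had 768 CPM. They are all 4 gamagrass genes of orthogroup OG0001223, with maize orthologues Zm00001eb412980 and Zm00001eb412990, and in each WEL well-watered replicate 10 came second with 77.7 to 105 CPM. Td00002ba033209 had a median of 0.911 CPM in the 63 drought plants, 49.6 CPM in the second highest of them and a median of 0.317 CPM in the 61 well-watered plants. Across the other 123 libraries the log2(CPM + 0.1) values of the 4 genes were correlated with a lowest r of 0.957 and a median of 0.967, and 19.8% of their nonzero values were not whole, against 18.2% over all eligible genes. WEL well-watered replicate 10 was second in 6 of the 15 genes and TRI drought replicate 9 was among the 5 highest plants in 6.

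**Figure D3:**
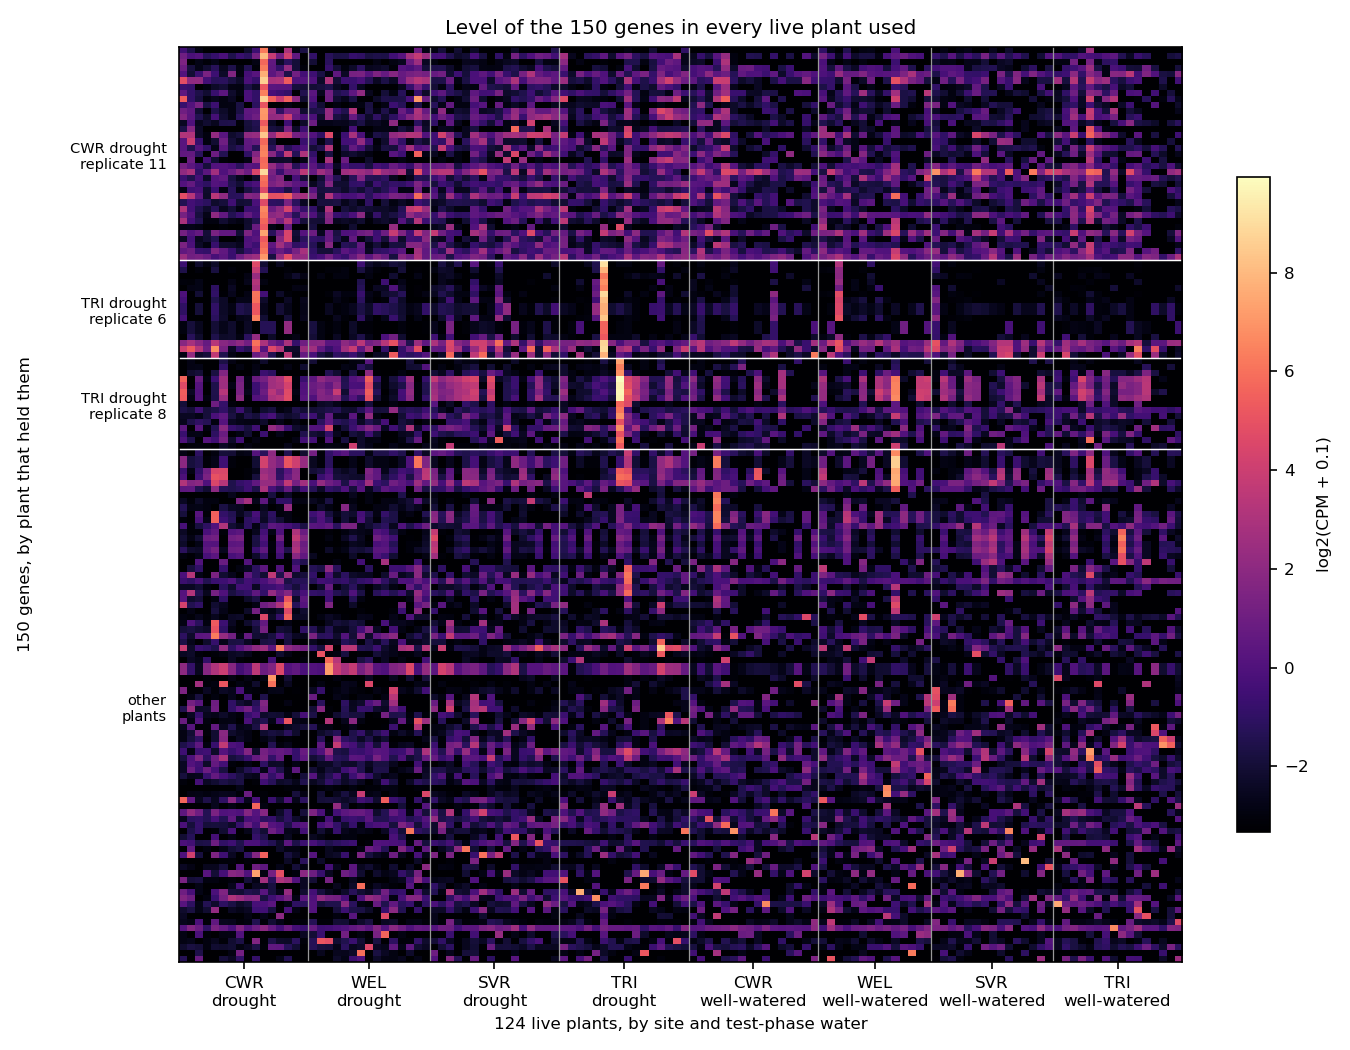
Level of the 150 genes (rows, ordered by the plant that held them) in each of 124 live plants (columns, by site and test-phase water), as log2(CPM + 0.1). The bright columns within the top 3 blocks are the holders, and in the second block CWR drought replicate 10 and WEL well-watered replicate 3 are bright as well, which ranked 2 and 3 in 12 and 11 genes.

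The holder of each set was low for the other sets. In TRI drought replicate 6 the 35 genes of CWR drought replicate 11 had a median of 0.495 CPM, and in TRI drought replicate 8 a median of 0.137 CPM. The 16 genes of TRI drought replicate 6 had medians of 0.143 CPM in CWR drought replicate 11 and 0.0274 CPM in TRI drought replicate 8. The 15 genes of TRI drought replicate 8 had medians of 0.125 CPM and 0.144 CPM in the other 2 holders. Over the 121 libraries other than the 3 holders, the median Spearman correlation between 2 genes was 0.25 within the first set, 0.27 within the second and 0.14 within the third. Between sets it was 0.097 for the first and second, 0.065 for the first and the third, and 0.00696 for the second and the third. These are descriptions over libraries that differ in depth, and overlapping or duplicated genes are among the pairs.

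WEL well-watered replicate 10 held 7 genes and was second for 12 more. Td00002ba005375 and Td00002ba005376 (chromosome 2, 23535634 to 23536814) overlap on opposite strands, had the same value in 126 libraries and share the maize orthologue Zm00001eb150050, annotated in the study as similar to a pathogenesis-related protein, a class of proteins that plants make when attacked by microbes. Td00002ba005375 had 393 CPM in this plant. Next came CWR well-watered replicate 4 with 76.9 CPM, WEL drought replicate 14 with 69.6 CPM and CWR drought replicate 14 with 34.2 CPM, and the medians were 0.186 CPM in drought and 0.0509 CPM in well-watered plants. The tandem pair Td00002ba041513 and Td00002ba041514 (chromosome 16, 6173620 to 6229342; orthogroup OG0000853) had 186 and 213 CPM there.

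TRI well-watered replicate 9 held 5 genes of 1 orthogroup, OG0000311, at 4 places on chromosomes 4, 10 and 12. Td00002ba014407, Td00002ba034846 and Td00002ba031263 each span 2301 bases. Td00002ba034846 (chromosome 12) had 89.4 CPM in the holder, 25.3 CPM in SVR drought replicate 1 and 23.2 CPM in SVR well-watered replicate 16. The 5 genes had shares of 34.004% to 36.5%, their log2(CPM + 0.1) values over the other 123 libraries were correlated with a median r of 0.967, and 34.03% of their nonzero values were not whole. Of these, 2 lie inside larger genes of the same orthogroup that were high in many plants. Td00002ba031262 around Td00002ba031263 had a median of 63.02 CPM and Td00002ba014406 around Td00002ba014407 a median of 40.4 CPM, and in both the highest plant was again TRI well-watered replicate 9. These 5 genes are therefore uncertain as separate genes.

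A larger percentage of members than of other eligible genes lay near a member on the chromosomes, which is given as counts without a test. Of the 150 genes, 30 (20%) had another member within 100 kb, whereas 1.57% of the other 29831 eligible genes did. Seen from the neighbours, 499 eligible genes lay within 100 kb of a member and 30 of these (6.01%) were members, against 0.5003% of all eligible genes. Among the next 150 genes by the same share, 22 (14.7%) had another gene of that list within 100 kb. The 30 members formed 15 groups of exactly 2, and no longer run was seen at this distance. In 14 of the 15 pairs both genes had the same holder. In gene order, 32 members had another within 5 genes. Position was not used by the choice, but gene families and overlaps were not removed by it either.

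In 7 of the 15 pairs the genes overlap on opposite strands, and in 2 of those the values were identical in every library. Such pairs can be 1 signal counted for both genes. When overlapping members were counted once, 16 of 143 places (11.2%) had another within 100 kb. When genes overlapping any other gene were left out before the choice, 16 of 150 genes (10.7%) did. The nearest member overlapped in 14 members, lay within 10 kb in 2 and between 10 and 100 kb in 14. Among the next 150 genes these numbers were 4, 0 and 18, so the larger number among members lay in overlapping genes. All pairs had the same size, so those named here were chosen after their values were seen. Of the 8 pairs that do not overlap, 5 were neighbours of 1 orthogroup. They were the 2 pairs of the chromosome 11 array, the chromosome 16 pair in WEL well-watered replicate 10, Td00002ba003745 and Td00002ba003749 (chromosome 1, 219460275 to 219510475) and Td00002ba012249 and Td00002ba012250 (chromosome 3, 154754784 to 154779186). Td00002ba007662 and Td00002ba007663 (chromosome 2, 113675870 to 113778642) were also held by 1 plant, but no orthogroup is listed for Td00002ba007662. A single pair was held by different plants. Td00002ba038442 and Td00002ba038443 (chromosome 14, 18142758 to 18149143) were highest in TRI drought replicate 11 and WEL well-watered replicate 12, with 74.1 and 77.2 CPM, but 4 of their 5 highest plants were the same. Of the members, 29 belonged to 11 orthogroups with 2 or more members, and each of the 11 was held by 1 plant. Over whole chromosomes, chromosome 2 had 22 members (14.7%) and 10.3% of eligible genes, and chromosome 4 had 17 (11.3%) and 7.48%. Overlapping pairs, several of which lie on chromosome 4, were counted as 2 members each here. Of the 35 genes of CWR drought replicate 11, 10 lay on chromosome 2, although that plant was highest for 4.61% of the eligible genes of chromosome 2 and 3.95% of all.

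Some features that the choice did not use are set beside those of eligible genes. Their gene bodies had a median length of 1834 bases, against 3964 over eligible genes and 1812 over the next 150. A maize orthologue was listed for 86% of members, against 79.9% of eligible genes and 78.7% of the next 150. With a minimum mean CPM of 0.1 it was 76.7% of the genes then chosen, so this is not read as a trait of the members. An overlap with a gene on the other strand was found for 18 members (12%) and 17.1% of eligible genes. Mean CPM was part of the choice and is given as a description only, with a median of 1.39 in members and 14.2 in eligible genes. The part of length and mean level in these percentages was not tested.

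Of 44 gamagrass genes given by identifier in the study's text, extended data table and supplementary note, 7 are members. Besides the 4 nas7 orthologues these were Td00002ba039891, Td00002ba006546 and Td00002ba019177. The full gene lists in the study's supplementary tables were not compared with the members. Td00002ba039891 (chromosome 15, 29830922 to 29832323), with no maize orthologue, had 39.1 CPM in CWR drought replicate 5 and 8.06 CPM in the next plant. Its median was 0.0397 CPM in drought and 0 in well-watered plants. Td00002ba006546 (chromosome 2, 64053339 to 64058930) had 85.5 CPM in TRI drought replicate 14. The next plants were droughted too, at 36.3 CPM in CWR drought replicate 14 and 31.3 CPM in WEL drought replicate 14, whereas well-watered plants reached 3.61 CPM. Td00002ba019177 (chromosome 5, 156142871 to 156148111) had 120 CPM in CWR well-watered replicate 6, and 3 further plants of 3 sites had 70.3 to 97.9 CPM, all far above its median of 0.138 CPM in drought and 0.165 CPM in well-watered plants. It was thus high in 4 plants, not in 1.

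The mock plants, which the choice did not use, gave values for the same genes in roots without live inoculum. Mock well-watered replicate 1, with 0.00605 M counts, could not be used and was left aside. In the other 7 mock libraries no member exceeded its live holder, 107 members reached 1 CPM in at least 1 library, and 2 were at 0 in all 7. In 17 members (11.3%) a mock plant exceeded all live plants but the holder, against 7.82% of the other eligible genes. Of these 17, 12 were in mock drought replicate 3. Td00002ba005375, the orthologue of the pathogenesis-related protein-like gene, had 145.6 CPM in that library and 0.0307, 0.0731 and 0.315 CPM in the other 3 mock drought libraries. Td00002ba012573 (chromosome 3) had 86.7 CPM there against 0.158 to 2.91 CPM. Td00002ba041513 had 53.3 CPM there and at most 0.123 CPM in the other 3. Td00002ba015395 had 41.1 CPM in mock drought replicate 2, against at most 0.0410 CPM in the other mock drought plants and 1.10 CPM in the second live plant. High values confined to 1 plant thus also occurred among plants without live inoculum. Across all members the CPM summed to 1020 in mock drought replicate 3 and to 75.6, 108.5 and 328.1 in the other mock drought libraries.

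**Figure D4:**
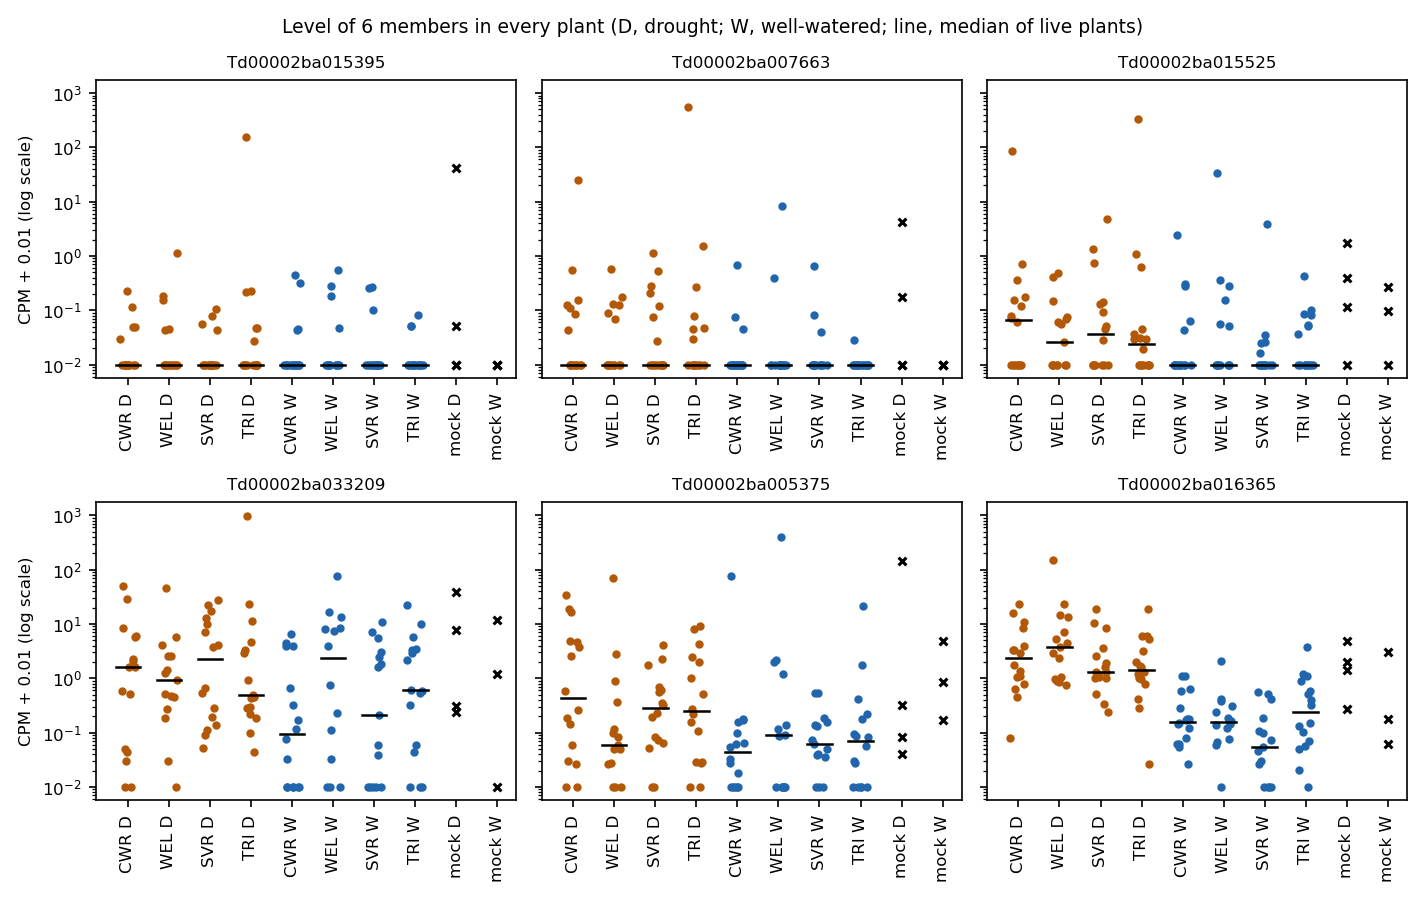
CPM plus 0.01 (vertical axis, log scale) of 6 members in each live plant by site and test-phase water (points) and in 7 mock plants (crosses), with a line at the median of each live group. In every panel 1 point lies above all others, at 157 CPM for Td00002ba015395 and 978 CPM for Td00002ba033209, and Td00002ba016365 has a median of 1.68 CPM in drought against 0.136 CPM in well-watered plants.

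The comparison of droughted with well-watered plants asked how such genes behave in the study's own additive model (DESeq2, with terms for legacy, for the water and host of conditioning, and for water in the test phase). Since the same libraries chose the members, this is a description of how the model treats them. DESeq2 replaces a count that lies far from the rest of its group by a value estimated from the others. It replaced at least 1 count in 101 members, in 99 of them that of the holder, whereas 2.32% of all 44342 genes fitted had any replacement. For Td00002ba033209 the 53504 counts of the holder became 83. Of the 150 members, 140 had a p-value, and 52 were called at an adjusted p under 0.05 (37.1%), beside 22.7% of all genes tested (percent called). Higher in drought were 33, beside 10.2% of all genes, and lower were 19, beside 12.5%. The direction followed the holder in 44 of the 52. Of the 33 that rose, 32 were held by a droughted plant, and of the 19 that fell, 12 were held by a well-watered one.

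With the highest library of every gene given a weight of 0, 37 of 143 members were called (25.9%), beside 21% of all genes tested. Of the 52 calls 32 remained, all in the same direction. edgeR's quasi-likelihood test, which keeps all counts, also called 52 members, of 123 tested (42.3%), beside 23.6% of all genes. limma voom called 27 of 123 (21.95%), beside 20.5%. DESeq2 and edgeR shared 36 of these calls. Among members held by droughted plants and fitted in all 3 ways (n = 80), the median log2 fold change of drought over well-watered was 1.16 with edgeR, 0.58 with DESeq2 and 0.47 without the holder. Among those held by well-watered plants (n = 43) it was −0.81, −0.53 and −0.25. Without replacement of outlying counts DESeq2 gave no p-value for 103 members and called 21 of the other 47, beside 23% of all genes. Depth differed between the treatments as given above.

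**Figure D5:**
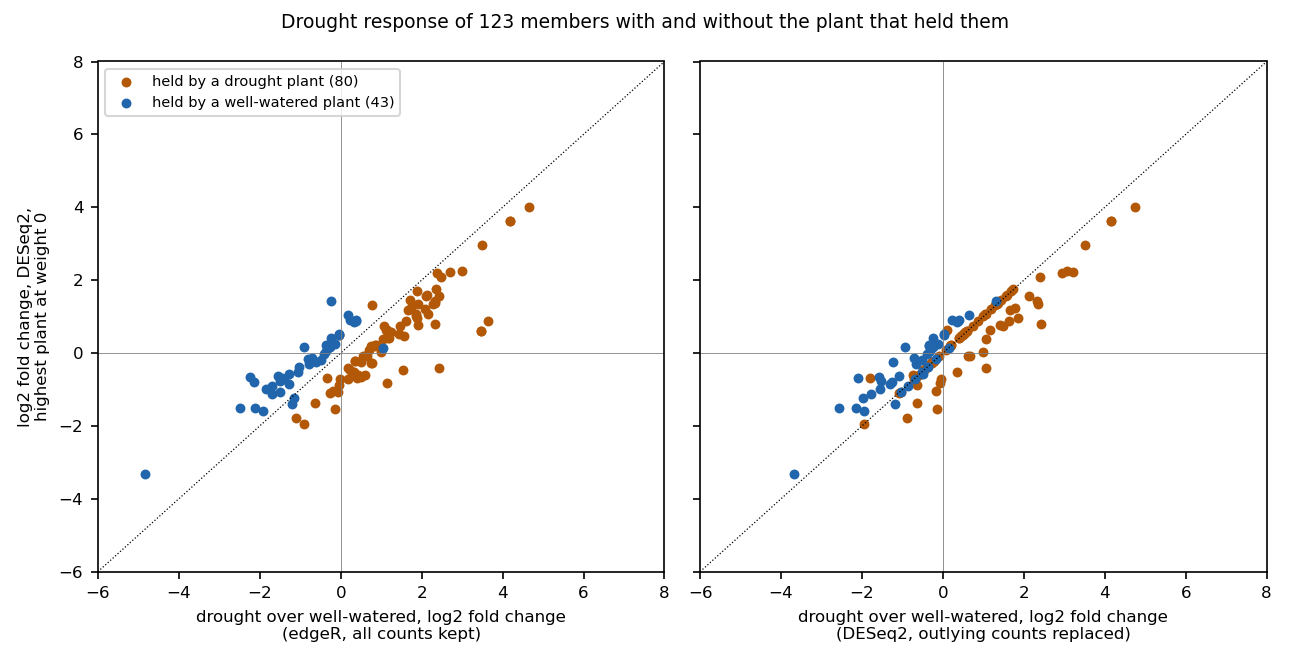
Log2 fold change of drought over well-watered for 123 members, from DESeq2 with the highest plant at weight 0 (vertical axis) against edgeR with all counts (left) and DESeq2 with outlying counts replaced (right), coloured by the treatment of the holder. Most members held by drought plants lie to the right of the dotted line of equality in the left panel, with medians of 1.16 and 0.47 on the axes, and those held by well-watered plants mostly to its left, with medians of −0.81 and −0.25.

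Of the 52 drought calls, 32 were made with and without the holder. Those described first had the smallest adjusted p in each direction. Td00002ba016365 and Td00002ba016364 (chromosome 4, 177911682 to 177915996), which overlap on opposite strands and had the same value in nearly every library, share the maize orthologue Zm00001eb403450. Td00002ba016365 ran from 0.0170 to 150 CPM in drought (median 1.68) and from 0 to 3.69 CPM in well-watered plants (median 0.136), so the groups overlapped. Its log2 fold change was 4.16 (SE 0.34, DESeq2 adjusted p = 2.29e-30) and 3.61 without the holder, WEL drought replicate 3. Td00002ba011773 (chromosome 3) fell in drought, by 3.68 on the log2 scale (SE 0.39, DESeq2 adjusted p = 1.25e-18). It had 0 to 0.203 CPM in drought (median 0) and 0 to 95.9 CPM in well-watered plants (median 0.124). At the depth of these libraries its typical values rested on a few counts or none. Its holder, WEL well-watered replicate 9, had 95.9 CPM and the next plant 4.82 CPM, and without the holder the log2 fold change was −3.32. Td00002ba031061 (chromosome 10) was called lower in drought, with a log2 fold change of −1.96 (SE 0.33, DESeq2 adjusted p = 1.02e-07), although its highest plant was the droughted CWR replicate 11 with 66.4 CPM. Its median was 0.302 CPM in drought and 0.815 CPM in well-watered plants, and edgeR, which kept that count, gave an adjusted p of 0.157. The study reports that drought raised the nas7 orthologues only with low-precipitation inocula. Over both legacies DESeq2 called only Td00002ba015526 of them, higher in drought (log2 fold change 1.86, adjusted p = 0.0291). Without its holder it was not called (adjusted p = 0.323). edgeR called the identical Td00002ba015515 and Td00002ba015516 higher (log2 fold change 3.48, adjusted p = 2.57e-05). Responses within each legacy were not compared.

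Few members were called for precipitation legacy. As for drought, the libraries tested also chose the members, so the calls and their percentages are description. Legacy was fixed by site, with CWR and WEL high and SVR and TRI low, and the model has no term for site. Plants of 1 site were thus counted as separate replicates of legacy, and legacy cannot be told apart from site. DESeq2 called 4 of 140 (2.86%), beside 0.0645% of all genes tested, all 4 lower with low-precipitation legacy, beside 0.0323% lower, and 33 had an unadjusted p under 0.05. Td00002ba039084 (chromosome 14) ran from 0 to 121 CPM in 61 plants of high-precipitation legacy (median 0.0420) and from 0 to 14.6 CPM in 63 plants of low-precipitation legacy (median 0.0365). Its log2 fold change was −3.67 (SE 0.61, adjusted p = 2.21e-05) and −2.60 without the holder, WEL well-watered replicate 9. The groups overlapped, with medians close together and the highest plants in the high-precipitation group. The others were the overlapping Td00002ba005375 and Td00002ba005376 and Td00002ba012573. The overlapping 2 are all the gamagrass genes in the orthogroup of Zm00001eb150050. The study reports the gamagrass orthologues of that maize gene as lower with low-precipitation than with high-precipitation legacy, whatever the watering. Td00002ba005375 had medians of 0.0733 CPM with high and 0.0956 CPM with low legacy, with a log2 fold change of −3.03 (SE 0.62, adjusted p = 0.00465). With its highest library at weight 0 each of these 3 was not called (lowest adjusted p = 0.932), and 1 of 143 members was, beside 0.0294% of all genes. edgeR and limma, which did not test Td00002ba039084, called 0 of 123 members for legacy, beside 0.00295% and 0% of all genes tested. Members at an unadjusted p under 0.05 numbered 43 with edgeR and 4 with limma. Without the 3 plants that held most members Td00002ba012573, held by CWR drought replicate 11, had an adjusted p of 0.603.

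Conditioning and the interaction of legacy with drought gave single genes. Here too the libraries tested had chosen the members, and the models have no term for site. For conditioning water DESeq2 called 2 of 140 members, beside 0.0429% of all genes (0.0226% higher and 0.0203% lower). Td00002ba032968 (chromosome 11) was lower after drought-stressed conditioning, with 0 to 0.637 CPM in 61 plants against 0 to 32.1 CPM in 63 (log2 fold change −4.58, SE 0.58, adjusted p = 7.06e-11). Without its holder, SVR well-watered replicate 1, the change was −2.54 (adjusted p = 0.00453). Td00002ba026307 (chromosome 8), held by CWR drought replicate 12, was higher (log2 fold change 4.44, SE 0.85, adjusted p = 0.00148), with a median of 0 in both groups and maxima of 61.8 and 24.3 CPM. edgeR and limma tested neither gene. For conditioning host 1 member was called, beside 0.0501% of all genes (0.02% lower). This was Td00002ba039084, lower with gamagrass (log2 fold change −3.82, SE 0.61, adjusted p = 9.15e-06), with 0 to 14.1 CPM against 0 to 121 CPM. For the interaction 1 member was called, beside 0.0281% of all genes (0.0204% lower). This was Td00002ba026307 again, with a log2 difference between the drought responses of −7.87 (SE 1.73, adjusted p = 0.0315). It was at 0 in 76 of 124 libraries. In drought it reached 61.8 CPM with high and 0.149 CPM with low legacy, and in well-watered plants 27.0 and 24.3 CPM, with a median of 0 in all 4 groups. Given weight 0 for its highest library it was not called, with a log2 difference of −6.92 (adjusted p = 0.194). In none of these comparisons were the groups separate, and each of the called genes was near 0 in the median plant of both groups except Td00002ba012573, with 1.12 and 1.14 CPM.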

How the data were processed

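Poly(A) RNA from crown roots of 133 gamagrass plants was sequenced as paired reads. After trimming (cutadapt), the authors aligned reads to genome Td-KS_B6_1-REFERENCE-PanAnd-2.0a using HISAT2, removed duplicates with SAMtools and counted reads over whole genes, introns included, with featureCounts 2.0.5. The deposited table holds unnormalized expected counts: reads that overlap several genes or map to several places were divided, no strand was set and mates were counted singly. Overlapping genes, antisense partners and near-identical copies can therefore share reads. Maize orthologues come from the authors' orthogroup table.

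CPM was the count divided by the library total. Counts were rounded for DESeq2 1.42.0, edgeR 4.0.16 and limma 3.58.1 (R 4.3.3), fitted over all genes of the 125 live libraries. Two-sided Wald tests of the study's additive and interaction models were adjusted by the Benjamini-Hochberg method over all genes, with a threshold of 0.05. Named genes are those with the highest shares, the highest levels in the plants holding most members and the highest mean CPM. Also named are the largest groups on a chromosome, orthogroups with 3 or more members and the highest levels in mock or shallow libraries. The rest are genes with the smallest adjusted p-values, members among the 44 identifiers taken from the study and the genes at the threshold. The groups on a chromosome all had 2 members, so the pairs named, and other genes outside this rule, were chosen after their values were seen. The members and lists were chosen with earlier results of these data known. Alternatives changed the library and level minima, the scaling, the test and the libraries used. The rule and the fit were tested on simulated data.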

Additional observations from a re-analysis of the deposited data

Results flagged for a closer look

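In 12 members there was 1 mock drought library far above the other 3. The measure was the gap to the nearest library over the range of all 4. The threshold was the 95% level of Dixon's test, which unselected values with a normal distribution pass in about 1 of 20 groups. The genes examined were the 13 in which a mock drought library exceeded the second live plant. A high library was thus part of how they were picked, so the rate of 1 in 20 does not apply to them. Of the 12, 11 were high in mock drought replicate 3. There Td00002ba005375 had 145.6 CPM and the overlapping Td00002ba005376 had 145.4 CPM, Td00002ba012573 had 86.7 CPM, Td00002ba041513 had 53.3 CPM and Td00002ba001301 had 51.2 CPM. Td00002ba019749 had 21.01 CPM, Td00002ba004972 had 15.9 CPM, Td00002ba038098 had 14.1 CPM and Td00002ba012605 had 10.2 CPM, while Td00002ba009624 had 8.50 CPM and Td00002ba017094 had 3.35 CPM. In mock drought replicate 2, Td00002ba015395 had 41.1 CPM.

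The drought response of Td00002ba026307 differed between legacies, with a log2 difference of −7.87 (DESeq2 adjusted p = 0.0315). With its highest library at weight 0 the difference was −6.92 and it was not called (adjusted p = 0.194). The gene was at 0 in 76 of 124 libraries, and neither edgeR nor limma tested it. SVR well-watered replicate 7, the shallow library that the choice left out, held 3 members above their second live plant and above all mock libraries used. Td00002ba031061 had 41.1 CPM from 47 counts, and Td00002ba039372 and Td00002ba039965 had 13.97 CPM from 16 counts each, where 3 counts are 2.62 CPM.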

How the results depend on the processing

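Of the 5 results on the choice of members, the number of plants with a member stayed between 45 and 61 (48 as reported). CWR drought replicate 11 held 23.3% of members, but 15.3% when the highest 2 plants made the share. At a mean CPM of 0.1 or more the largest percentage was 12% (TRI drought replicate 8) and the percentage with a maize orthologue 76.7%. Without CWR drought replicate 11 the largest was 12.7% and droughted plants held 57.3%. Without the 3 plants that held most, chosen after seeing the data, these were 6% and 44.7%, and 93 of the 150 genes remained. Members with another within 100 kb were 10.7% among genes that overlap no other and 11.2% with overlaps counted once. Drought calls were 52 of 140 members tested (37.1%) as reported. They were 21 of 47 (44.7%) without replacement of outlying counts and 27 of 123 (21.95%) with limma voom. All genes tested gave 22.7%, 23% and 20.5%. Legacy calls fell from 4 to 1 with the highest library at weight 0 and to 0 with edgeR and limma. All genes tested gave 0.0294%, 0.00295% and 0% in these fits, and edgeR and limma did not test Td00002ba039084. Conditioning water calls fell from 2 to 1 without replacement, where Td00002ba026307 had no adjusted p. They were 0 with edgeR's filter on low counts (filterByExpr; 31 members at an unadjusted p under 0.05), edgeR (48) and limma (3). In those fits, which called 0.0413%, 0.0147% and 0% of all genes tested, neither Td00002ba032968 nor Td00002ba026307 was tested. Conditioning host calls went from 1 to 2 without the 3 plants, beside 0.0635% of all genes tested. They were 0 with filterByExpr (24), edgeR (41) and limma (2), beside 0.0413%, 0.00884% and 0%. Those fits did not test Td00002ba039084, which was called in all 5 alternatives that did. Interaction calls went from 1 to 2 with TMM size factors and when the shallow library was left out. They went to 0 with weight 0 (22), without replacement (11), with filterByExpr (25) and with limma (2). All genes tested gave 0.00677%, 0.0202%, 0.0265% and 0%. Of these fits only that with weight 0 gave Td00002ba026307 an adjusted p. With edgeR 1 of 117 members was called, beside 0.0119% of all genes tested. That call, and the call added in the fits with 2, were of genes other than Td00002ba026307, which edgeR did not test. None of the named fold changes reversed in sign. In the study some inoculum extracts went to both a droughted and a well-watered gamagrass plant. The labels give the plants no shared replicate numbers, so no paired analysis was possible. Plants that shared an extract were treated as independent. The causes were not tested.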
